A study of Mus musculus with 5 samples.

Results

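Capture Hi-C contact maps of the locus of Shh (Sonic hedgehog) were compared between limb buds of E10.5 mouse embryos homozygous for the intraTAD3 allele and of embryos homozygous for the intraTAD2 allele. They are 2 of the 5 mutant samples of the series, and both genotypes came from mating. The other 3 mutant genotypes, intraTAD2-i4CTCF (from mating), intraTAD2-2xBorCTCF and intraTAD2-1xBorCTCF (both from tetraploid aggregation), and the authors' wild-type map are given only as levels beside a result. They are called i4CTCF, 2xBorCTCF, 1xBorCTCF and wild type. The 2 maps were chosen by genotype label and file name. All pairs of 5 kb bins from 27,480,001 to 30,270,000 on mouse chromosome 5 (mm10) entered, except those of 11 bins. Of these bins, 3 form the stretch from 29,305,001 to 29,320,000 inside Lmbr1, which intraTAD3 nearly lacks, and the others had few partners in at least 1 map of the series. This left 149,878 of 155,961 bin pairs. What was edited in each allele is not given in the sources used here, and the tissue label could not be checked against marker genes in contact data.

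Shh encodes a secreted signal that patterns the limb along the axis from thumb to little finger. Its limb enhancer, the ZRS, lies far away inside an intron of the neighbouring gene Lmbr1, and both sit in 1 topologically associating domain (TAD), a stretch of chromosome whose parts touch each other more often than they touch the outside. TAD borders are typically places where the protein CTCF stops the loop-forming cohesin complex. Capture Hi-C joins DNA ends that lie close together in the fixed nucleus and counts which bins were joined, after enriching for a chosen region. The comparison asks where in the locus the contacts of the 2 genotypes differ.

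The maps were of similar depth, with 2,849,095 recovered contacts in intraTAD3 and 2,942,790 in intraTAD2. Each genotype had 1 library, so no spread between embryos could be estimated and no test was made. Values are distance-normalised contacts: the balanced value of a bin pair divided by the average of all pairs at that distance in the same map, so that 1 is average. Ratios are log2 of intraTAD3 over intraTAD2, followed by a 95% interval that covers counting error of the contacts only. "Beyond counting error" means that this interval leaves out 0. Over 82,862 bin pairs 50 kb to 1000 kb apart the Spearman correlation of the balanced values was 0.825, as a description. It fell with distance and depth, from 0.969 for pairs 5 to 20 kb apart (median 267 and 272 contacts a pair) to 0.387 for pairs over 1000 kb apart (median 2 contacts in both). A difference in scale also stood between the maps. Pairs within 1 bin held 14.01% of all contacts in intraTAD3 and 10.54% in intraTAD2, and the share of the balanced signal was lower in intraTAD3 in each class from 100 kb upward, by -0.12 to -0.10 on the log2 scale. The distance-normalised values are relative to that shift.

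Both maps had 1 bin with unusually many contacts, each at a different place in the gene desert between Shh and Rnf32. The bin at 28,685,001, 220.4 kb from the end of Shh, held 38,218 contacts in intraTAD2, 3.79 times the average bin of that map. In intraTAD3 it held 18,355, which is 1.90 times the average and close to the 2.01 times of wild type. The maps whose labels also carry intraTAD2 differed here, with 2.43 times the average in i4CTCF, 2.09 in 2xBorCTCF and 3.38 in 1xBorCTCF. The bin at 28,875,001, 410.4 kb from Shh, held 40,080 contacts in intraTAD3, 4.14 times the average bin, against 10,559 in intraTAD2 (1.05 times) and 0.743 times in wild type. These are the bins with the lowest (-0.996) and the highest (1.99) log2 ratio of the share of contacts among all 547 bins, whose middle 90% spanned -0.22 to 0.12. Past 1.5-fold in either direction were 4 bins (0.731% of all bins), the others being 27,940,001 and 28,600,001, both lower in intraTAD3. Same-bin contacts were raised with the totals. The bin at 28,685,001 held 3821 of them in intraTAD2 and 1273 in intraTAD3, and the bin at 28,875,001 held 3894 in intraTAD3 and far fewer in intraTAD2. Balancing scales all bins to 1 total, which takes these excesses out of the balanced totals. It does not make the balanced values below independent of them, because a fixed total ties contact nearby to contact farther away. The 25 kb windows around these bins are called the left position (28,675,001 to 28,700,000) and the right position (28,865,001 to 28,890,000).

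**Figure D1:**
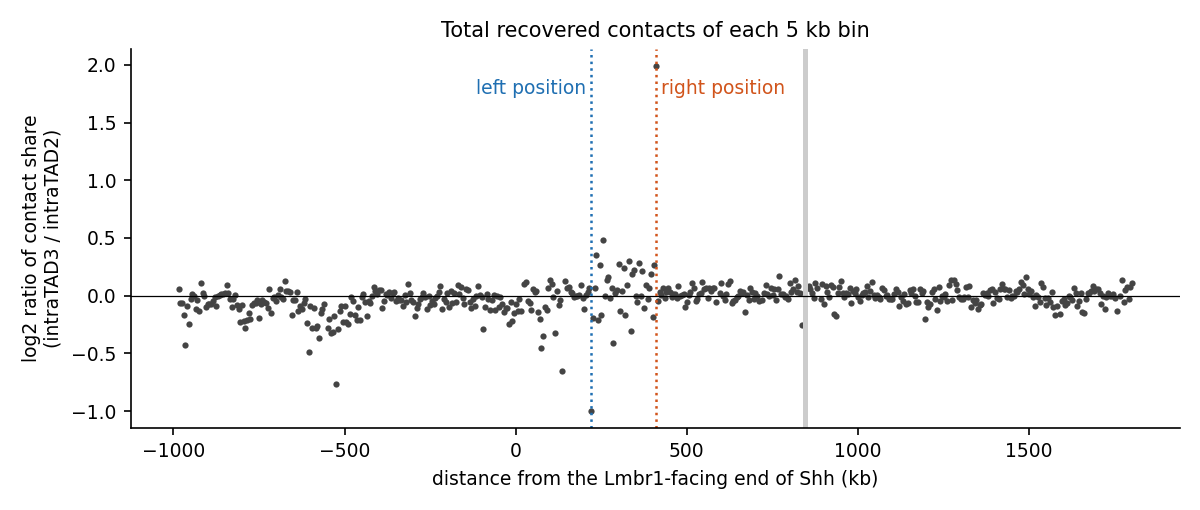
Each point is a 5 kb bin; the y axis is the log2 ratio of its share of all recovered contacts, intraTAD3 over intraTAD2, and the x axis its distance from Shh in kb. Dotted lines mark the left and the right position, where the points lie at -0.996 and 1.99, and the grey band marks the left-out stretch.

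Seen from Shh, each position was contacted more in the map in which its bin was raised. Contact of Shh with the left position was 1.29 in intraTAD2 and 0.996 in intraTAD3 (log2 ratio -0.38, -0.52 to -0.23; 1295 and 680 contacts). The opposite held for the right position, at 1.94 in intraTAD3 and 1.48 in intraTAD2 (0.39, 0.23 to 0.54; 994 and 645 contacts). Neither difference rests on the pairs of the raised bin alone: without it they were -0.38 (-0.56 to -0.21) and 0.33 (0.15 to 0.51). This alternative was chosen after the data were seen. It keeps the deposited balancing, so it cannot take out an effect of the raised bin on the balanced values of its neighbours.

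Along the whole Shh profile, 486 overlapping windows of 25 kb were compared. A window was called where the values differed by a factor of 5 to 4 or more beyond counting error. This held for 19 windows higher in intraTAD3 (3.91%) and 5 lower (1.03%). Of the 171 windows inside the domain, the single one called lower was centred on the bin at 28,685,001. Of the 7 called higher, 4 were centred on the bins from 28,865,001 to 28,880,001, that is on the right position. The others lay at 28,595,001 and 28,600,001 (ratios of 0.42 and 0.33, the first being the highest in the domain), and at 29,070,001 (0.36). The windows at 28,595,001 and 28,600,001 both hold the bin at 28,600,001, whose share of contacts was lower in intraTAD3 (-0.66). They also span the bin at 28,605,001, left out for few partners. The median of the domain windows was 0.078, a difference smaller than the shift of scale between the maps given above. Among the 9 single bins within 20 kb of the right position, the contact with Shh in intraTAD3 was highest at 28,875,001 (2.37) and next at 28,870,001 (2.02), where intraTAD2 was at 1.58 and 1.39, both differences lying beyond counting error. Wild type was also highest at 28,875,001 (1.92, on 47 contacts), with 1.92 at 28,890,001 too. Around the left position, intraTAD2 was at 1.37 both in the raised bin and at 28,690,001. The largest difference there was at 28,695,001 (-0.74, -1.20 to -0.29).

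**Figure D2:**
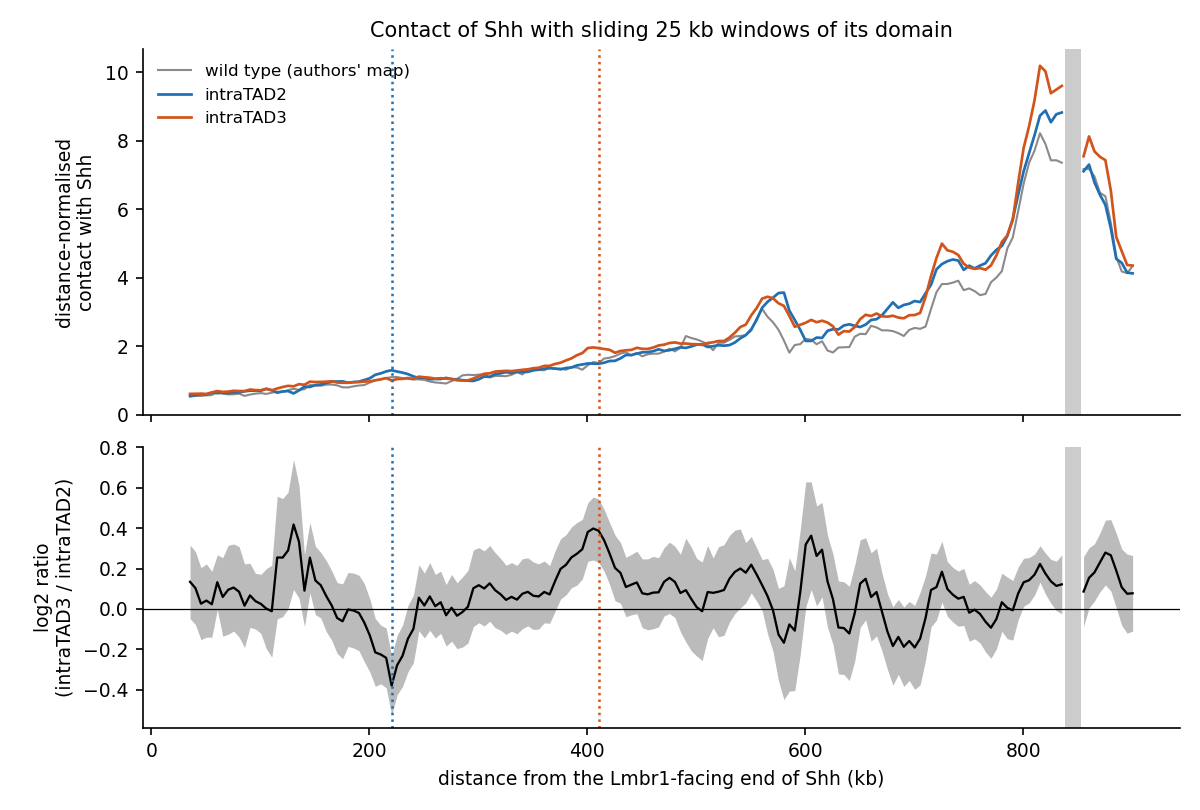
Upper panel: distance-normalised contact of Shh with sliding 25 kb windows of its domain, by distance from Shh in kb, in intraTAD3, intraTAD2 and the authors' wild-type map. Lower panel: log2 ratio of intraTAD3 over intraTAD2 with its 95% counting interval in grey; the ratio dips to -0.38 at the left position and reaches 0.40 next to the right one.

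The levels in the other maps can be set beside those of the pair. Apart from wild type, these maps carry intraTAD2 in their genotype labels. For the right position and Shh, wild type was at 1.51, i4CTCF at 1.44, 2xBorCTCF at 1.60 and 1xBorCTCF at 1.21. All lie below the 1.94 of intraTAD3, whose counting interval of 1.80 to 2.08 overlaps only that of 2xBorCTCF (1.37 to 1.83). For the left position and Shh, wild type was at 1.09 and i4CTCF at 1.099, between the 0.996 of intraTAD3 and the 1.29 of intraTAD2. The counting interval of intraTAD2 (1.214 to 1.375) overlapped that of i4CTCF (0.969 to 1.229) but not that of wild type (0.985 to 1.205), and both of these overlapped that of intraTAD3 (0.916 to 1.08). The BorCTCF maps stood above all of these, at 2.26 in 2xBorCTCF and 1.95 in 1xBorCTCF.

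The positions were also compared with 14 genes, Shh included. With the left position, 8 of 14 genes had less contact in intraTAD3 beyond counting error and 0 had more. With the right position, 5 of 14 had more and 0 had less. Over all 178 windows of 25 kb in the domain, 6.91% of 2402 window and gene pairs were higher and 3.87% lower beyond counting error. No other of these overlapping windows had as many as 8 genes lower, and 4 windows, the right position included, had 5 or more genes higher. All 14 ratios were negative at the left position (median -0.15), and 12 of 14 were positive at the right position (median 0.13). The 14 ratios of a position share the same 25 kb window and the same maps, so they are not independent of each other. Balancing also ties them to the contact inside that window. How many other windows have as many ratios of the same sign was not counted, so these sign counts have no background.

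In the domain, Lmbr1, the membrane protein gene whose intron holds the ZRS, had a contact of 1.81 with the left position in intraTAD3 and 1.965 in intraTAD2 (-0.12, -0.19 to -0.037). With the right position it was at 1.504 in intraTAD3 and 1.33 in intraTAD2 (0.17, 0.098 to 0.25). Rnf32, a RING finger gene beside Lmbr1, had ratios of -0.15 (-0.27 to -0.038) at the left and 0.17 (0.067 to 0.28) at the right position. Scaled by the map total, the right-position ratios were 0.054 for Lmbr1 and 0.057 for Rnf32, both within counting error. The left-position differences of both are small and reached 0 with the raised bin left out of the window (-0.093, -0.19 to 0.00014, for Lmbr1 and -0.13, -0.27 to 0.0035, for Rnf32). Outside the domain the homeobox genes En2 and Mnx1 had the largest ratios. The contact of En2, a gene of midbrain and hindbrain patterning, with the left position was 0.371 in intraTAD3 and 0.612 in intraTAD2 (-0.72, -1.07 to -0.38; 110 and 266 contacts). With the right position it was 0.733 in intraTAD3 and 0.505 in intraTAD2 (0.54, 0.18 to 0.89; 218 and 115 contacts). Mnx1, a motor neuron gene, was at 0.540 against 0.722 with the left position (-0.42, -0.81 to -0.020) and at 0.740 against 0.519 with the right (0.51, 0.15 to 0.87). For Mnx1 these were not the extremes of the domain: among 167 overlapping windows the left position had the 10th lowest ratio and the right the 4th highest. The windows centred on 28,750,001 (-0.69) and 29,035,001 (0.75) went further. For En2, among 172 windows, the left position had the 4th lowest ratio and the right the highest. All these levels with En2 and Mnx1 lay below 1, so they describe contacts rarer than the average at their distance. Rbm33, Cnpy1 and Nom1 had less contact with the left position in intraTAD3, by -0.15, -0.21 and -0.29, and did not differ beyond counting error at the right one (0.098, -0.034 and 0.16). The intervals of Dpp6, Paxip1, Htr5a, Insig1, Ube3c and Dnajb6 included 0 at both positions.

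**Figure D3:**
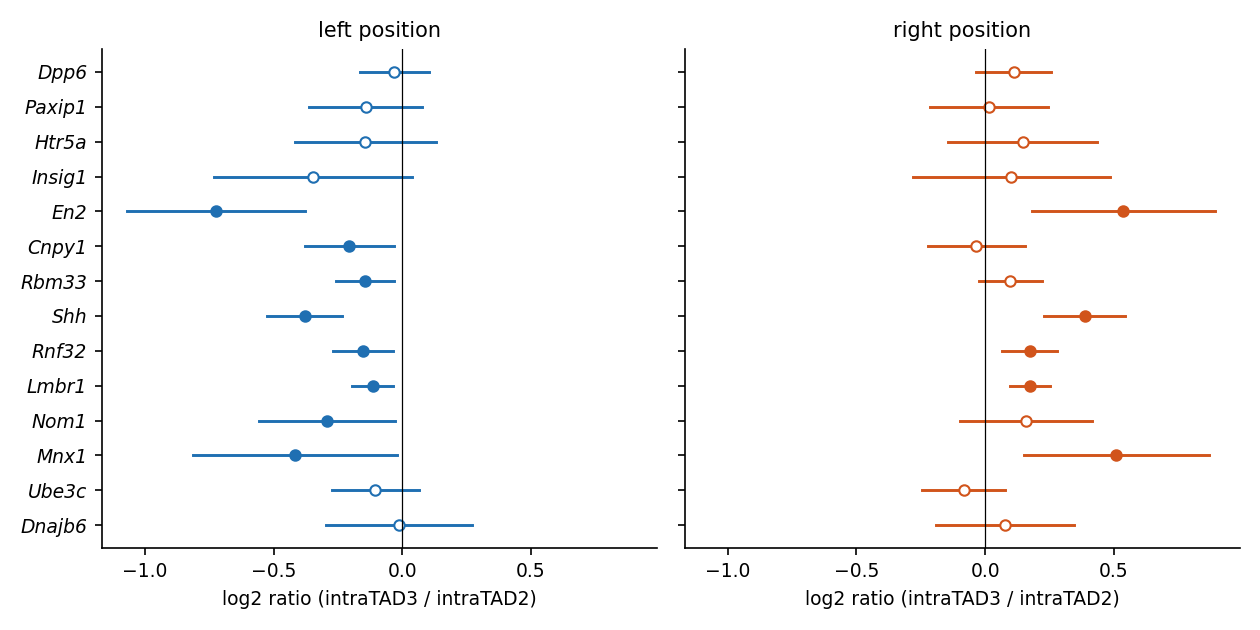
Log2 ratio of contact (intraTAD3 over intraTAD2, x axis) of the left and the right position with 14 genes in map order, with 95% counting intervals; filled points have intervals that leave out 0. All 8 filled points at the left position lie below 0 and all 5 at the right position above it.

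Contact with the domain as a whole differed less. The left position and the rest of the domain did not differ beyond counting error (1.35 in intraTAD3 and 1.37 in intraTAD2, -0.015, -0.045 to 0.016). The right position had more contact with the rest of the domain in intraTAD3 (1.27 against 1.18, 0.11, 0.077 to 0.14), although scaling by the map total turned this to -0.039. Inside their own 25 kb the order was the other way round: contact was lower in the map with the raised bin, at 0.701 in intraTAD2 against 0.850 in intraTAD3 at the left position and at 0.652 in intraTAD3 against 0.842 in intraTAD2 at the right. As balancing gives every bin the same total, lower contact nearby and higher contact farther away are not independent of each other here. The positions touched each other at 1.248 in intraTAD3 and 1.18 in intraTAD2, within counting error (0.077, -0.040 to 0.19).

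Insulation, the log2 of the mean distance-normalised contact between the 100 kb before and the 100 kb after a bin boundary, had a local minimum at each position in its own map. Lower values mean less contact across. Each boundary given here was picked as the lowest of that map within 25 kb of the position, which favours the difference seen. At the fixed boundaries 28,685,001 and 28,875,001 the differences were 0.11 (0.068 to 0.15) and -0.16 (-0.20 to -0.13). At 28,690,001 insulation was -0.086 in intraTAD2 and 0.035 in intraTAD3 (difference 0.12, 0.083 to 0.16). Wild type was at 0.023 there, i4CTCF at -0.021, 2xBorCTCF at -0.075 and 1xBorCTCF at -0.20. At 28,880,001 it was -0.20 in intraTAD3 and -0.033 in intraTAD2 (-0.17, -0.20 to -0.13), and the other maps lay between -0.067 and 0.056. This was the lowest difference among 518 boundaries, and a difference of 0.1 or more beyond counting error was found at 11 boundaries in this direction (2.12%) and at 24 in the other (4.63%). The highest difference of the region, 0.21, was at 29,305,001, at the left-out stretch. More than 100 kb from that stretch the highest, 0.13, was at 28,695,001, beside the left position. Among all boundaries it ranked 9th highest, and 28,690,001 ranked 14th. The size of the differences at 28,690,001 and 28,880,001 depended on the setting. Both kept their sign and stayed beyond counting error under the 9 alternatives run. At the right position the difference was -0.042 with unbalanced contacts, -0.053 with squares of 200 kb, -0.30 scaled by the map total and -0.31 with squares of 50 kb. At the left position it was 0.071 with unbalanced contacts and 0.26 with squares of 50 kb. The minima at both positions are shallow beside those at the domain borders.

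**Figure D4:**
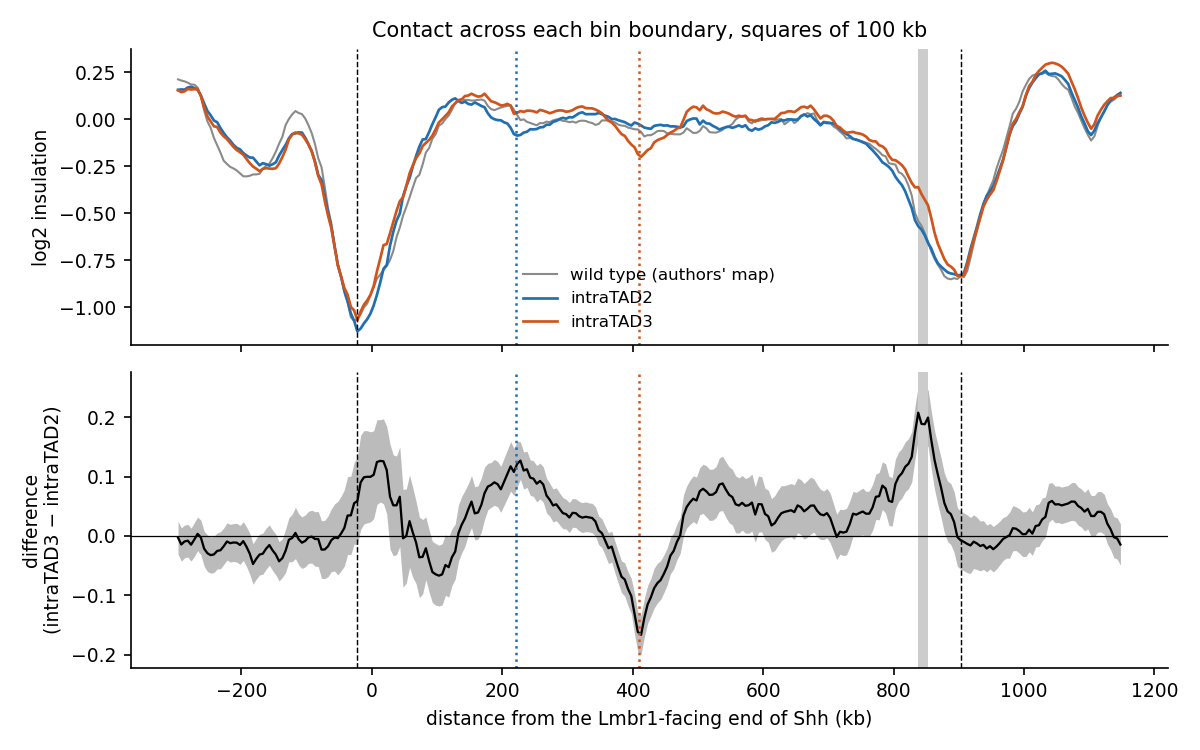
Upper panel: log2 insulation at each bin boundary from 300 kb before Shh to past the domain, in intraTAD3, intraTAD2 and the authors' wild-type map, by distance from Shh in kb. Lower panel: intraTAD3 minus intraTAD2 with its 95% counting interval; it falls to -0.17 at the right position, and dashed lines mark the domain borders, where it is 0.059 and -0.0073.

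The differences at the borders themselves lay within counting error, though not under every alternative. Next to Shh, at 28,445,001, insulation was -1.07 in intraTAD3 and -1.13 in intraTAD2 (0.059, -0.015 to 0.13). At the other end, at 29,370,001 inside Lmbr1, it was -0.83 in both (-0.0073, -0.056 to 0.042). The difference inside Lmbr1 lay beyond counting error when scaled by the map total (-0.070, -0.11 to -0.025) and with the pairs across the left-out stretch set 15 kb shorter in intraTAD3 (-0.066, -0.12 to -0.018). The difference next to Shh did so with more bins of few partners left out (0.070, 0.0050 to 0.13). The domain between them spans 925 kb, and its mean contact was 1.48 in intraTAD3 and 1.45 in intraTAD2 (0.032, 0.022 to 0.042), a difference that turned to -0.017 when values were scaled by the map total. Contacts of the domain with the En2 side (0.986 and 0.984) and with the Mnx1 side (0.640 and 0.639) did not differ beyond counting error.

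Inside the domain the largest difference lay at the Lmbr1 end. Contacts among the bins of Rnf32 and Lmbr1 up to the border were higher in intraTAD3 (0.11, 0.088 to 0.14). Contacts between the stretch from the border next to Shh to the left position and the stretch between the positions were also higher (0.082, 0.057 to 0.11). Contacts of the stretch between the positions with the desert beyond the right position were lower (-0.042, -0.063 to -0.020). Of the other 7 combinations of these parts, 4 were higher in intraTAD3 beyond counting error (0.026 to 0.062), among them the desert beyond the right position with itself (0.046) and with Rnf32 and Lmbr1 (0.062), and 3 lay within it.

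At the Lmbr1 end the difference was centred on the left-out stretch. The stretch held 913 contacts in intraTAD3 and 23,939 in intraTAD2. Contacts that bridge it, between the 20 kb before and the 20 kb after, were 1.37 in intraTAD3 and 0.732 in intraTAD2 (0.91, 0.80 to 1.01; 2279 and 1375 contacts). The other maps lay between 0.735 and 0.869. Farther out, from 20 to 50 kb on either side, the ratio was 0.20 (0.054 to 0.34), and from 50 to 100 kb it was -0.043 (-0.16 to 0.069). Setting the bridging pairs of intraTAD3 at a distance 15 kb shorter, the length of the stretch, gave 0.706 for the nearest pairs, 0.648 for the next and 0.521 for the farthest, against 0.732, 0.679 and 0.582 in intraTAD2.

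Contact of Shh with Lmbr1 outside the stretch was 6.46 in intraTAD3 and 6.05 in intraTAD2 (0.095, 0.038 to 0.15; 5475 and 6051 contacts), close to the median of 0.078 for all windows of the domain seen from Shh. It was higher on both sides of the stretch, by 0.084 (0.016 to 0.15) before it and by 0.14 (0.037 to 0.25) after it. The pairs after it bridge the stretch that intraTAD3 nearly lacks. With bridging pairs set 15 kb shorter in intraTAD3, Shh with the whole of Lmbr1 came to 0.073 (0.016 to 0.13). The 2 sides were not recomputed in that way. Scaled by the map total the Lmbr1 ratio was -0.0045 (-0.061 to 0.052), with unbalanced contacts 0.019 (-0.034 to 0.072) and with 2 bins either side of each gene 0.047 (-0.017 to 0.11), so that it then lay within counting error. Rnf32 was at 4.53 and 4.37 (0.050, -0.049 to 0.15).

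Of the 13 genes measured against Shh, 1 was higher beyond counting error, Lmbr1, and 0 were lower. Of all 213 gene pairs with 100 or more contacts, 10.8% lay beyond counting error, 6 of them higher and 17 lower in intraTAD3. On the En2 side, the contact with Shh was 1.48 in intraTAD3 and 1.36 in intraTAD2 for En2 (0.12, -0.050 to 0.28) and 0.804 and 0.764 for Cnpy1, a regulator of FGF signalling (0.074, -0.054 to 0.20). Rbm33, an RNA-binding protein gene just across the border, was at 0.491 and 0.487. Paxip1, whose product acts in DNA repair, was at 0.831 and 0.728 (0.19, -0.033 to 0.42). For Insig1, a regulator of cholesterol synthesis, and Htr5a, a serotonin receptor gene, the ratios were 0.10 and 0.15. On the Mnx1 side, Mnx1 was at 4.23 and 4.31 (-0.030, -0.23 to 0.17) and Nom1 at 2.76 and 2.47 (0.16, -0.022 to 0.34). Ube3c, a ubiquitin ligase gene, and Dnajb6, a chaperone gene, had ratios of 0.10 and -0.020. The contacts of Shh itself with En2 and Mnx1 thus lay within counting error of each other, with intervals that still allow differences of up to 0.28 and down to -0.23.

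Among the other gene pairs the largest differences rested on few, distant contacts. Cnpy1 and Selenoi, a selenoprotein gene of phospholipid synthesis, were lowest (0.762 against 1.06, -0.48, -0.85 to -0.11; 133 and 171 contacts), followed by Insig1 with Nom1 (-0.47, -0.79 to -0.14). Rbm33 with the cytokine gene Il6 (-0.34), Cnpy1 with Adgrf3 (-0.33) and Mnx1 with Garem2 (-0.30) came next, and only the last of them had an interval without 0. Shh with Tyms, the thymidylate synthase gene, had the highest ratio (1.12 against 0.734, 0.61, 0.059 to 1.16), on 73 and 64 contacts. Cnpy1 with Il6 followed (0.51, 0.021 to 1.01), and the intervals of Shh with 3110082J24Rik, Speer4b with Htr5a and Htr5a with Tyms included 0. At a factor of 5 to 4 or more beyond counting error, 3 gene pairs were higher and 2 lower, 2.35% of all.

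On a fixed grid of 50 kb blocks with 100 or more contacts, 32 of 1579 reached a factor of 5 to 4 beyond counting error (2.03%), 13 higher (0.823%) and 19 lower (1.2%) in intraTAD3. Of these, 25 joined stretches 1000 kb or more apart, where counts are low. Inside the domain 1 of 153 blocks was called, the block at 29,280,001 that holds the left-out stretch (1.08 against 0.702, 0.62, 0.54 to 0.70; 5715 and 4725 contacts). The highest ratio joined the block of Shh to that of Tyms (1.34 against 0.719, 0.90, 0.27 to 1.52; 103 and 89 contacts), and the block of Shh with the next one, which holds Garem2 and Hadha, was at 0.58. Ratios of 0.72 and 0.68 joined 28,930,001 to Hadhb and Adgrf3 and 28,080,001 to 29,830,001. The lowest ratios joined Dpp6 to Hadhb and Adgrf3 (-0.83, -1.46 to -0.21; 42 and 74 contacts), 28,480,001 to Selenoi (-0.80), Dpp6 with Speer4b to Lmbr1 (-0.57), 27,930,001 to Garem2 and Hadha (-0.57) and Cnpy1 to Selenoi (-0.54). All but the fourth of these ratios lay beyond counting error.

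Single bin pairs within 500 kb and with 20 or more contacts were called at 2-fold, with no interval. Of 35,491 pairs, 1257 were called (3.54%), 561 higher (1.58%) and 696 lower (1.96%) in intraTAD3. The bin at 28,875,001 had 9 higher and 0 lower of 188 pairs, and the bin at 28,685,001 had 0 higher and 6 lower of 192. The minimum of 20 contacts is summed over both maps. Each of these bins held most of its contacts in the map where it was raised. Its pairs therefore tended to pass through that map, which favours calls in the direction seen, so these counts do not bear out a difference. Over the same pairs the median log2 ratio was 0.16 for 28,875,001 and 0.039 for 28,685,001, against 0.0019 over all pairs. The median over pairs in the domain was 0.032. These medians are subject to the same selection, so the 0.16 does not bear out a difference either. Although the selection favours lower values for 28,685,001, its typical pair was not lower. Of 90 pairs that bridge the left-out stretch with both ends within 50 kb of it, 5 were higher and 0 lower. Inside the domain the shares were 1.16% and 1.13% of 11,089 pairs.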

How the data were processed

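The deposited unit is a signal, the contact of 2 bins of 5 kb after balancing, with 1 map per genotype. The deposited file names carry MAPQ30, read as a mapping quality limit of 30, and KR, read as Knight-Ruiz balancing. Bowtie2 (2.2.6) and both mm9 and mm10 are listed, with no role, in the submitters' processing notes. Per the labels' protocols, DpnII was the enzyme and capture used SureSelect probes. Duplicate removal and the caller of contacts are not given in the sources used here. The column of 1 further map, wild type, matches none of the samples and is used as the authors' map.

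Whole contacts and a factor for each bin were recovered from the values, with 100% whole within 0.01. The recovery and the intervals were tried on simulated maps, with Poisson counts drawn from a smoothed intraTAD2 map. For the intervals both simulated sides had the same bin factors. The simulations hold no error of balancing and no spread between libraries. They therefore cannot show that the intervals suit the real maps. A bin was dropped if any map gave it fewer partners than 25% of that map's median bin. Gene windows are the gene body (GRCm38) and 1 bin either side; position windows have 5 bins. Domain borders are minima of the mean insulation of the 2 maps. Intervals use the Poisson error of the recovered contacts; reads without molecular identifiers are not independent molecules. Python 3.11.15, NumPy 2.4.6 and SciPy 1.17.1 were used. With 1 library a side there was no test. The members, windows, positions and gene lists were chosen with earlier results of these data known. Genes named are 14 genes of the region, and the 5 largest rises and falls among other gene pairs and among blocks. Alternatives changed the distance expectation, scale, balancing, bins, windows and thresholds.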

Additional observations from a re-analysis of the deposited data

How the results depend on the processing

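No paired analysis was possible because each genotype had 1 library. Of 183 values recomputed under 17 alternatives, 145 stayed within the interval of the reported value (counts within 1.5 times, the similarity within 0.05). Some of these could not change by construction, such as the similarity where only the distance expectation or the scale was altered. Shh contact was lower with the left and higher with the right position beyond counting error in all 10 alternatives, from -0.77 to -0.21 and from 0.26 to 0.78. Scaled by the map total, Shh with Lmbr1 came to -0.0045, contact inside the domain to -0.017 and the right position with the rest of the domain to -0.039, all turned in sign. The left position with the rest of the domain came to -0.052, the insulation difference to -0.032 next to Shh and -0.070 inside Lmbr1, the latter beyond counting error, and 80 blocks were called (7 higher, 73 lower). That scaling keeps the general shift by distance, by its construction. Without balancing, Shh with Lmbr1 was 0.019, contact inside the domain 0.046, the positions with the rest of the domain -0.29 and 0.57, insulation next to Shh -0.046, the similarity of the maps 0.882 and the blocks 69 (38 higher, 31 lower). The raised totals of the position bins enter those values. With the expectation from pairs outside the domain, contact inside it was 0.045. The right position with 3 bins gave 0.15. Blocks of 100 kb gave 0 calls and 1.5-fold gave 6. A minimum of 50 contacts left 102 bin pairs called, of fewer tested. With bridging pairs 15 kb shorter in intraTAD3, an alternative added after the data were seen, insulation inside Lmbr1 differed by -0.066, also beyond counting error. With more bins of few partners left out, insulation next to Shh differed beyond counting error (0.070, 0.0050 to 0.13). Depth limits pairs over 1000 kb apart, with a median of 2 contacts.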
